A study of Mus musculus with 6 samples.

Results

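The 10 genes described here encode the enzymes that remove superoxide and peroxides in the cell: the 6 peroxiredoxins (Prdx1 to Prdx6), the glutathione peroxidases Gpx1 and Gpx4, catalase (Cat) and the copper-zinc superoxide dismutase Sod1. They were chosen by symbol, and all 10 were found among the 55487 genes of the deposited count table. All 10 passed the filter on low counts that left 12930 genes for the test. The samples were RAW264.7 cells, a line of mouse macrophages from which osteoclasts can be grown. RANKL and M-CSF, which push such precursors towards the osteoclast, were given to all 6. In 3 samples, titled SMART-Cas9, the small GTPase gene Rhoa had been targeted with Cas9, and their genotype is given as RhoA knockout. The other 3 were wild-type control cells, called untreated in the design text. Whether the edited cells were 1 clone or a pool is not given in the sources used here, and without a Cas9-only group the edit of Rhoa and the exposure to Cas9 cannot be told apart. The labels do not say whether replicates came from separate cultures, and the p-values therefore cover the spread among these samples alone, which may be technical. The stated question was how a lack of RhoA in macrophages bears on bone loss in rheumatoid arthritis.

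Superoxide made by the NADPH oxidase of a macrophage, or leaked by its mitochondria, is turned into hydrogen peroxide by superoxide dismutases. Hydrogen peroxide is then reduced to water by catalase in peroxisomes, by peroxiredoxins, whose reactive cysteine is restored by thioredoxin, and by glutathione peroxidases, which draw on glutathione. Gpx1 and Gpx4 carry selenocysteine, the selenium form of cysteine, in the active site, and Gpx4 reduces lipid hydroperoxides within membranes. Several of these genes, among them Prdx1, are known targets of the transcription factor NRF2 (Nfe2l2).

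Selenocysteine is written into the messenger RNA as TGA, which is otherwise a stop codon. In the longest annotated coding sequence of each gene (GENCODE M21), an in-frame TGA before the stop was found once in Gpx1, at codon 47, once in Gpx4, at codon 129, and in none of the other 8 genes. The stretches below show this codon in capitals with 30 bases on either side, because it sets Gpx1 and Gpx4 apart from the rest. Of the 63 bases, 35 were the same at the same place in both.
Gpx1, chromosome 9: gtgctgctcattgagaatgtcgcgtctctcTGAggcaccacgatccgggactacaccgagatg
Gpx4, chromosome 10: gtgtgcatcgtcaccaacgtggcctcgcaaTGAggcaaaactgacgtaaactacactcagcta

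Promoter sequences from RefSeq (GRCm38.p6, from 250 bases before to 50 bases after the annotated start) were at hand for 9 of the 10 genes, all but Prdx6. They were searched on both strands for the core of the antioxidant response element, the site of NRF2, spelled TGACNNNGC. The 12 windows of the 9 genes, of which 4 belong to Gpx4, held it in Prdx1, 133 to 125 bases before the start, and in Sod1, 56 to 48 bases before the start. Over all 32851 promoters of this length the share with a match was 12.4%. The AP-1 site TGANTCA was found at 2 places in Prdx1, of which 1 overlaps the element, against 7.81% of all promoters, and the FoxO site TGTTTAC was found in none of the 12 windows, against 3.65%. Both promoters with a match are printed with it in capitals, beside those of Gpx1 and Prdx5, the genes with the largest rise and the largest fall, in which no match was found. A match is a run of letters only and does not show that a factor binds there.
Prdx1, chr4:116685349-116685648, plus strand: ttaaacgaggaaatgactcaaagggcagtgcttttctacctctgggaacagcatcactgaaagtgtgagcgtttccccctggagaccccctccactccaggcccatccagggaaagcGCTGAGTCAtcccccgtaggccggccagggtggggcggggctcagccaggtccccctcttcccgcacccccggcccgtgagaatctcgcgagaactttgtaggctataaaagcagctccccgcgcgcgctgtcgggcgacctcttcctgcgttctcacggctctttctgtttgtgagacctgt
Sod1, chr16:90220512-90220811, plus strand: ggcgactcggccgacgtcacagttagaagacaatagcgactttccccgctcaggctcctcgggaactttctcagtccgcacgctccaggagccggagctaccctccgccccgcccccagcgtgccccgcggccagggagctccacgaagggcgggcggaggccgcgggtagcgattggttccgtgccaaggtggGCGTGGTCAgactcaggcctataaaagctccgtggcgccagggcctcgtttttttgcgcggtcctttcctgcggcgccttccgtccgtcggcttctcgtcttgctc
Gpx1, chr9:108338830-108339129, plus strand: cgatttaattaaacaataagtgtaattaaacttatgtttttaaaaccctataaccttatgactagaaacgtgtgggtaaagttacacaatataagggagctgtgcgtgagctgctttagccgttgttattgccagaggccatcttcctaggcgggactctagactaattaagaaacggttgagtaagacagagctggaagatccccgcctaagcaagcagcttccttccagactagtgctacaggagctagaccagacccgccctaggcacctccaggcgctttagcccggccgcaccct
Prdx5, chr19:6910057-6910356, minus strand: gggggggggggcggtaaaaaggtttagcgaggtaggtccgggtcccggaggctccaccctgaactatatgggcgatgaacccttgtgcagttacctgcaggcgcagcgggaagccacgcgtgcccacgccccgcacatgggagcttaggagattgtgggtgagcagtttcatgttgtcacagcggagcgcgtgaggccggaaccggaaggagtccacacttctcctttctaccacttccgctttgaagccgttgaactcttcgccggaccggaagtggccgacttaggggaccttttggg

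The libraries held 71777994 to 81830819 counts in the libraries labelled RhoA knockout and 60198645 to 79918899 counts in the control libraries. The 10 genes together took 0.518 to 0.561% of the counts in the libraries labelled RhoA knockout and 0.436 to 0.752% in the control libraries. Levels are given as CPM, a gene's count relative to the total of its library, scaled by the trimmed mean of M-values (TMM). Rhoa itself did not have a lower level where it had been targeted. The libraries labelled RhoA knockout held 34.2, 29.9 and 31.5 CPM of it, against 21.5, 25.8 and 24.4 CPM in the control libraries, and its fitted log2 change was 0.41 ± 0.12 (SE; edgeR adjusted p = 0.0136). The adjusted p was 0.0741 without knockout replicate 1 and 0.0645 without control replicate 1. The groups are therefore named by their labels throughout. Macrophage markers were present in both groups, with all 9 counted and a summed level of 81110 to 113700 CPM in the libraries labelled RhoA knockout and 18210 to 20060 CPM in the controls, most of it from Lyz2. Of these 9 markers Lyz2, Cd68 and Csf1r were called higher in the libraries labelled RhoA knockout, Itgam, Fcgr1, Cd14, Adgre1 and Ptprc were called lower, with log2 changes of -2.01 for Itgam and -1.91 for Fcgr1, and Mrc1 was not called. The part of these differences in the results below was not tested. Of the markers of osteoclasts 7 of 9 had a count, Calcr and Oscar had none, and the summed level was 27.3 CPM in every library labelled RhoA knockout and 23.9 to 27.7 CPM in the controls. Within that sum Ctsk and Atp6v0d2 were called higher, by 1.10 and 0.62 on the log2 scale, Mmp9, Acp5 and Dcstamp were called lower, with log2 changes of -2.06, -1.43 and -0.77, and Nfatc1 was not called. The marker lists of 7 other cell types summed to at most 1.90 CPM in a library labelled RhoA knockout and at most 3.31 CPM in a control library, in both cases in the T cell list, in which Cd3e, Cd3g, Cd4, Cd8a and Trac had no count and nearly all of the level was that of Lck. Replicate 3 stood apart in both groups. Over genes, the chi-square of counts divided by its degrees of freedom was 80.8 to 101 between it and the others labelled RhoA knockout and 89.0 to 99.9 between it and the other controls, against 26.2 and 20.6 between replicates 1 and 2 of the same groups. In samples of this kind, fewer cells of a type and less RNA per cell cannot be told apart.

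Of the 10 genes 6 were higher in the libraries labelled RhoA knockout, 2 were lower and 2 did not pass the test, at an edgeR adjusted p of 0.05 over all 12930 genes. Over all genes tested 43.2% passed, 21.0% as higher and 22.3% as lower, so a call as such is common in this comparison. Of all calls 48.5% were higher, and with library totals in place of TMM this was 59.8%, with a median log2 change of 0.15 over all genes, while the counts of 6 and 2 among the 10 genes stayed. Gpx1, Gpx4, Prdx2, Prdx4, Prdx6 and Sod1 rose, Prdx5 and Cat fell, and Prdx1 and Prdx3 were not called. The same 6 higher and 2 lower genes were called without replicate 3 of both groups. The median log2 change of the 10 genes was 0.48, against -0.03 over all genes tested. Most of the 10 genes lie in the 2 quintiles with the shortest merged exons, where the medians over all genes were 0.33 and 0.26. The 10 genes were also chosen with earlier results of these data known. For the 8 called genes the 3 libraries labelled RhoA knockout did not overlap the 3 control libraries, as was the case for 55.8% of all genes tested.

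**Figure D1:**
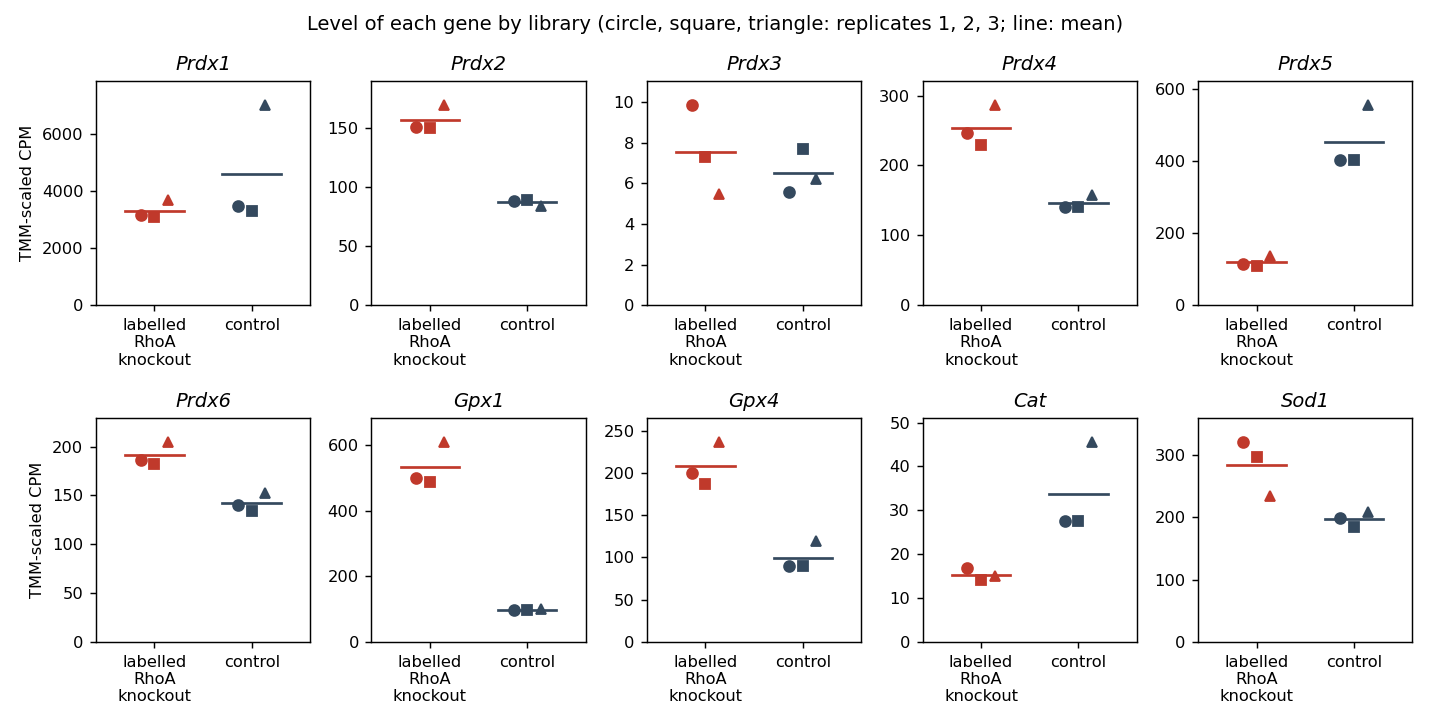
Level of each of the 10 genes in the 6 libraries, in TMM-scaled CPM on linear axes that start at 0. Points are libraries, with circle, square and triangle for replicates 1, 2 and 3, and lines are group means. The groups do not overlap for 8 genes, while the control library of replicate 3, at 7007 CPM, stands far above the others for Prdx1.

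Gpx1, the main cytosolic and mitochondrial glutathione peroxidase (ENSMUSG00000063856.7, chr9:108338903-108340343, plus strand, GRCm38), had the largest change of the 10. It held 500, 488 and 611 CPM in the libraries labelled RhoA knockout, compared with 98.6, 96.4 and 102 CPM in the control libraries. The lowest library labelled RhoA knockout thus lay far above the highest control, and the controls lay within a few CPM of each other. The mean was 532.8 ± 67.9 CPM in the libraries labelled RhoA knockout and 98.9 ± 2.68 CPM in the controls (SD, n = 3 each), a log2 change of 2.43 ± 0.12 (SE), or 5.39-fold (edgeR adjusted p = 4.46e-08). Gpx1 lies 968 bp downstream of Rhoa, the targeted gene, on the same strand, and the annotated genes share no exon. The count of Gpx1 was 14.6, 16.3 and 19.4 times that of Rhoa in the libraries labelled RhoA knockout, compared with 4.598, 3.74 and 4.16 times in the control libraries. Rhoa and Gpx1 were both called higher, with a fold of 1.33 for Rhoa, and whether their neighbourhood plays a part was not tested. The antisense gene Gm37401, 629 bp from Gpx1, had no count in any library.

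Gpx4, which protects membranes from lipid peroxidation (ENSMUSG00000075706.10, chr10:80047166-80056439, plus strand), held 200, 187 and 237 CPM in the libraries labelled RhoA knockout, compared with 89.3, 90.0 and 120 CPM in the control libraries. On this TMM scale replicate 3 was the highest library of each group, and the groups did not overlap. The mean was 208 ± 25.97 CPM in the libraries labelled RhoA knockout and 99.7 ± 17.4 CPM in the controls (SD, n = 3 each), with a log2 change of 1.06 ± 0.14 (SE; edgeR adjusted p = 7.00e-05). The value of Gpx4 is uncertain in part, since its pseudogene copy Gpx4-ps2 matches it at 99.7% over 733 bp and held up to 16.3% of its count. With the counts of such copies added, the call was kept. Among glutathione peroxidase transcripts per length, Gpx1 made up 75.4 ± 0.445% of the sum of Gpx1 and Gpx4 in the libraries labelled RhoA knockout and 54.5 ± 3.57% in the controls (SD, n = 3 each; exact permutation p = 0.1, two-sided, the smallest that 3 against 3 can give). Per length of the longest transcript the mean share of Gpx1 was 70.4% in the libraries labelled RhoA knockout and 48.2% in the controls, so which of them was the larger in the controls depends on the length used. Of the other glutathione peroxidases, Gpx2, Gpx5, Gpx6, Gpx7 and Gpx8 had no count in any library, which allows up to 0.0336 to 0.0394 CPM in the libraries labelled RhoA knockout and 0.0389 to 0.0512 CPM in the controls, and Gpx3 had 12 counts in control replicate 1 alone.

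Prdx5, a peroxiredoxin of mitochondria, peroxisomes and cytosol (ENSMUSG00000024953.17, chr19:6906697-6910106, minus strand), had the largest fall. It held 114, 107 and 137 CPM in the libraries labelled RhoA knockout, compared with 402, 401 and 554 CPM in the control libraries. Even the highest library labelled RhoA knockout was far below the lowest control. The mean was 119 ± 15.5 CPM in the libraries labelled RhoA knockout and 452 ± 88.2 CPM in the controls (SD, n = 3 each), a log2 change of -1.92 ± 0.15 (SE), or 0.264-fold (edgeR adjusted p = 1.35e-06). The gene overlaps Trmt112, a methyltransferase activator on the opposite strand, by 409 bp of exon. As the strand setting of the counts is not given in the sources used here, reads from this stretch cannot be assigned to one of them. Trmt112 went the other way, with 36.3 ± 4.14 CPM in the libraries labelled RhoA knockout and 14.9 ± 2.11 CPM in the controls (SD, n = 3 each; log2 change 1.28 ± 0.14, SE; edgeR adjusted p = 1.56e-05). Its count was 27.0 to 35.3% of that of Prdx5 in the libraries labelled RhoA knockout and 3.12 to 3.58% in the controls.

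Prdx1, a cytosolic peroxiredoxin and by far the most abundant of the 10 (ENSMUSG00000028691.12, chr4:116685544-116700822, plus strand), was not called. It held 3158, 3090 and 3679 CPM in the libraries labelled RhoA knockout, compared with 3468, 3315 and 7007 CPM in the control libraries. Control replicate 3 stood far above the other 5 libraries, and the other controls lay within the range of the libraries labelled RhoA knockout. The mean was 3309 ± 322 CPM in the libraries labelled RhoA knockout and 4597 ± 2089 CPM in the controls (SD, n = 3 each). The log2 change was -0.47 ± 0.26 (SE; edgeR adjusted p = 0.183), with a 95% interval of -1.07 to 0.12, and it was -0.03 without control replicate 3 (adjusted p = 0.857). In TMM-scaled CPM, replicate 3 was the highest library labelled RhoA knockout for 7 of the 10 genes, against 37.5% of all genes tested. It was the highest control for 8 of the 10, against 35.2%. In the libraries labelled RhoA knockout this place depends on the scaling. In the controls it does so for Gpx1 and Sod1, but not for Prdx1, Prdx4, Prdx5, Prdx6, Gpx4 and Cat. The TMM factors of replicates 1, 2 and 3 labelled RhoA knockout were 1.144, 1.123 and 0.93. Those of the controls were 0.966, 0.973 and 0.892. Without scaling, the 10 genes took 0.561, 0.533 and 0.518% of the counts in the libraries labelled RhoA knockout, least in replicate 3. In the controls they took 0.450, 0.436 and 0.752%, most of it from Prdx1. Control replicate 3 was also high for Hmox1, the heme oxygenase, with 265.0 CPM against 76.4 and 75.8 CPM in control replicates 1 and 2, and for the cystine carrier gene Slc7a11, with 62.1 CPM against 42.9 and 43.1 CPM. It was not the highest control for the NRF2 list's Mafg, with 25.2 CPM against 33.3 and 32.5 CPM, nor for Gsr, the glutathione reductase, with 5.97 CPM against 7.54 and 8.69 CPM. These 4 genes were chosen after their values were seen. Whether what sets this library apart plays a part in the values of Prdx1 was not tested.

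The cytosolic Prdx2 (ENSMUSG00000005161.15, chr8:84969587-84974834, plus strand) held 150.5, 150 and 169 CPM in the libraries labelled RhoA knockout, compared with 88.3, 89.4 and 83.6 CPM in the control libraries. The spread within each group was small beside the gap between them. The log2 change was 0.85 ± 0.10 (SE), or 1.80-fold (edgeR adjusted p = 3.17e-05). Prdx2 shares 177 bp of exon with Rnaseh2a and 173 bp with Junb, both on the opposite strand. Rnaseh2a, a subunit of ribonuclease H2, had a log2 change of 0.92 ± 0.11 (SE; edgeR adjusted p = 2.93e-05), close to that of Prdx2, and held 37.5 ± 1.31 CPM in the libraries labelled RhoA knockout and 19.8 ± 0.918 CPM in the controls (SD, n = 3 each). Junb, an AP-1 factor, was not called (adjusted p = 0.336).

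Prdx4, the peroxiredoxin of the endoplasmic reticulum (ENSMUSG00000025289.15, chrX:155323918-155340754, minus strand), held 247, 229 and 286 CPM in the libraries labelled RhoA knockout, compared with 141, 140.1 and 157 CPM in the control libraries. The groups did not overlap, and replicate 3 was the highest in both on the TMM scale. The log2 change was 0.80 ± 0.12 (SE), or 1.74-fold (edgeR adjusted p = 0.000147). With a correction for merged exon length it was 0.51 (adjusted p = 0.00234).

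Prdx6, which uses a single reactive cysteine and glutathione rather than thioredoxin (ENSMUSG00000026701.15, chr1:161240112-161251219, minus strand), had the smallest of the called changes. It held 187, 182 and 205 CPM in the libraries labelled RhoA knockout, compared with 140.2, 134 and 153 CPM in the control libraries. All 3 libraries labelled RhoA knockout lay above all 3 controls. The log2 change was 0.43 ± 0.10 (SE), or 1.34-fold (edgeR adjusted p = 0.00542). Prdx3, the peroxiredoxin of the mitochondrial matrix (ENSMUSG00000024997.7, chr19:60864051-60874556, minus strand), was scarce. It held 9.86, 7.32 and 5.48 CPM in the libraries labelled RhoA knockout, compared with 5.599, 7.67 and 6.21 CPM in the control libraries. The groups overlapped, and the library labelled RhoA knockout with the lowest value was below every control. The log2 change of 0.22 ± 0.23 (SE; edgeR adjusted p = 0.473) had a 95% interval of -0.28 to 0.72 and turned to -0.13 with the length correction and to -0.04 without knockout replicate 1.

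Catalase, Cat (ENSMUSG00000027187.10, chr2:103453849-103485160, minus strand), the hydrogen peroxide enzyme of peroxisomes, fell. It held 16.95, 14.02 and 14.99 CPM in the libraries labelled RhoA knockout, compared with 27.6, 27.6 and 45.6 CPM in the control libraries. Control replicate 3 was again the highest, and the lowest control lay well above the highest library labelled RhoA knockout. The mean was 15.3 ± 1.495 CPM in the libraries labelled RhoA knockout and 33.6 ± 10.4 CPM in the controls (SD, n = 3 each), a log2 change of -1.13 ± 0.19 (SE; edgeR adjusted p = 0.000412), or -0.85 without control replicate 3.

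Sod1, which turns superoxide into hydrogen peroxide in the cytosol (ENSMUSG00000022982.10, chr16:90220754-90226329, plus strand), held 321, 296 and 233.5 CPM in the libraries labelled RhoA knockout, compared with 198, 184 and 209 CPM in the control libraries. Here replicate 3 was the lowest of the libraries labelled RhoA knockout, and the gap to the highest control was narrow. The log2 change was 0.53 ± 0.13 (SE), or 1.44-fold (edgeR adjusted p = 0.00568). Ccs, the chaperone that loads copper into Sod1, rose too, with 34.2 CPM on average in the libraries labelled RhoA knockout and 20.6 CPM in the controls (log2 change 0.73 ± 0.14, SE; edgeR adjusted p = 0.00144). Sod2, the manganese enzyme of mitochondria, held 224, 209.7 and 252 CPM in the libraries labelled RhoA knockout, compared with 325.5, 321 and 333 CPM in the control libraries. Its log2 change of -0.51 ± 0.11 (SE; edgeR adjusted p = 0.00213) shrank to -0.04 with the length correction (adjusted p = 0.812). The extracellular Sod3 had no count.

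**Figure D2:**
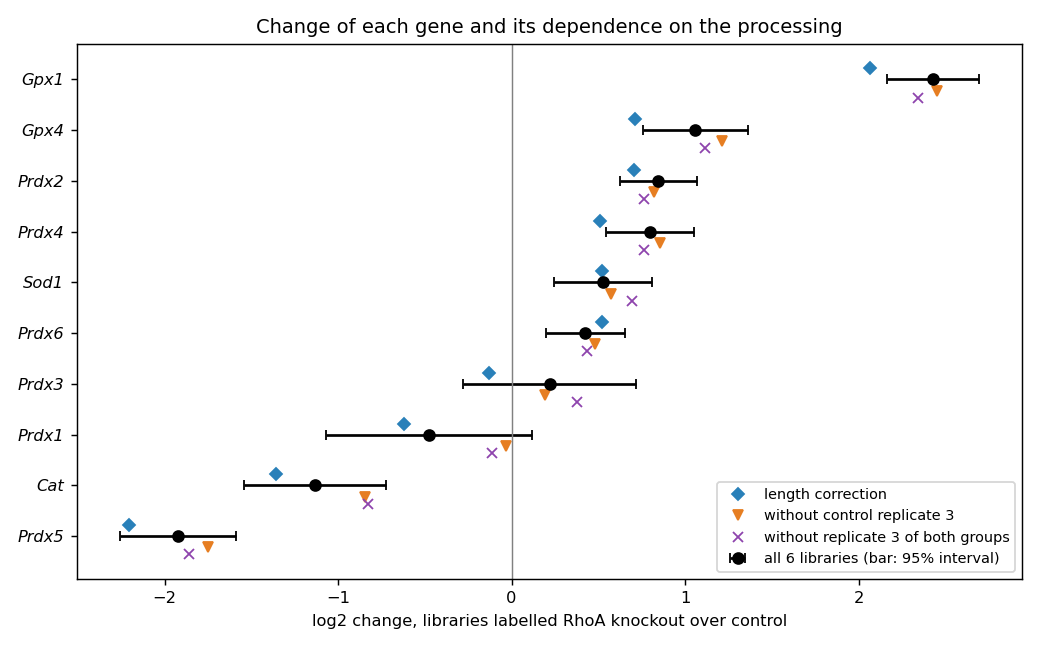
Fitted log2 change of each gene in the libraries labelled RhoA knockout over the control libraries, with 95% intervals as bars, and the value with a length correction, without control replicate 3 and without replicate 3 of both groups. The intervals of Prdx1 and Prdx3 include 0, and Prdx1 comes to -0.03 without control replicate 3.

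Changes followed the length of merged exons across all genes. Over all genes tested the median log2 change was 0.33 in the quintile with the shortest merged exons, up to 1750 bp, and -0.47 in that with the longest, 6975 bp and over. Gpx1, Gpx4 and Prdx3 belong to the shortest quintile, Prdx1, Prdx2, Prdx4, Prdx5 and Cat to quintile 2, with a median of 0.26, Sod1 to quintile 3, with 0.04, and Prdx6 to quintile 4, with -0.19. A smooth length trend taken out of each library left all 8 calls in place, with log2 changes of 2.07 for Gpx1, 0.71 for Gpx4, 0.70 for Prdx2, 0.52 for Prdx6, 0.52 for Sod1, -2.21 for Prdx5 and -1.36 for Cat. For some genes merged exons are much longer than the longest protein-coding transcript. The lengths were 3970 against 641 bp for Sod1, 4804 against 2387 bp for Prdx6 and 2106 against 990 bp for Prdx4. No trend with transcript length was taken out. The part of length in the values of the 10 genes was not tested beyond this.

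Levels of different genes were compared as TMM-scaled CPM per kb of merged exon. Prdx1 was first in both groups, with 1087 ± 106 per kb in the libraries labelled RhoA knockout and 1511 ± 686 per kb in the controls (SD, n = 3 each). The second place was taken by Gpx1 in the libraries labelled RhoA knockout, with 370 ± 47.1 per kb, and by Prdx5 in the controls, with 212 ± 41.2 per kb. Gpx1 had rank 4 in the controls, with 68.6 ± 1.86 per kb, and Prdx5 rank 6 in the libraries labelled RhoA knockout, with 55.7 ± 7.25 per kb. In the libraries labelled RhoA knockout the order went on with Gpx4, Prdx4, Sod1, Prdx5, Prdx2, Prdx6, Cat and Prdx3. In the controls it went on after Prdx5 with Prdx4, Gpx1, Gpx4, Sod1, Prdx6, Prdx2, Cat and Prdx3. The ranges over libraries overlapped between the neighbours Gpx4 and Prdx4, Sod1 and Prdx5, Prdx5 and Prdx2, and Cat and Prdx3 in the libraries labelled RhoA knockout. In the controls they overlapped between Prdx4 and Gpx1, Gpx1 and Gpx4, Gpx4 and Sod1, and Prdx6 and Prdx2. The order depends on the length used. Sod1, whose merged exons span 3970 bp while its longest protein-coding transcript has 641 bp, had rank 3 in both groups per kb of that transcript, and Gpx1 then had rank 2 in the libraries labelled RhoA knockout and rank 6 in the controls. The order of the neighbours Gpx4 and Prdx4, Prdx4 and Sod1, and Prdx5 and Prdx2 turned in the libraries labelled RhoA knockout, and that of Gpx1 and Gpx4, and Gpx4 and Sod1 in the controls.

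**Figure D3:**
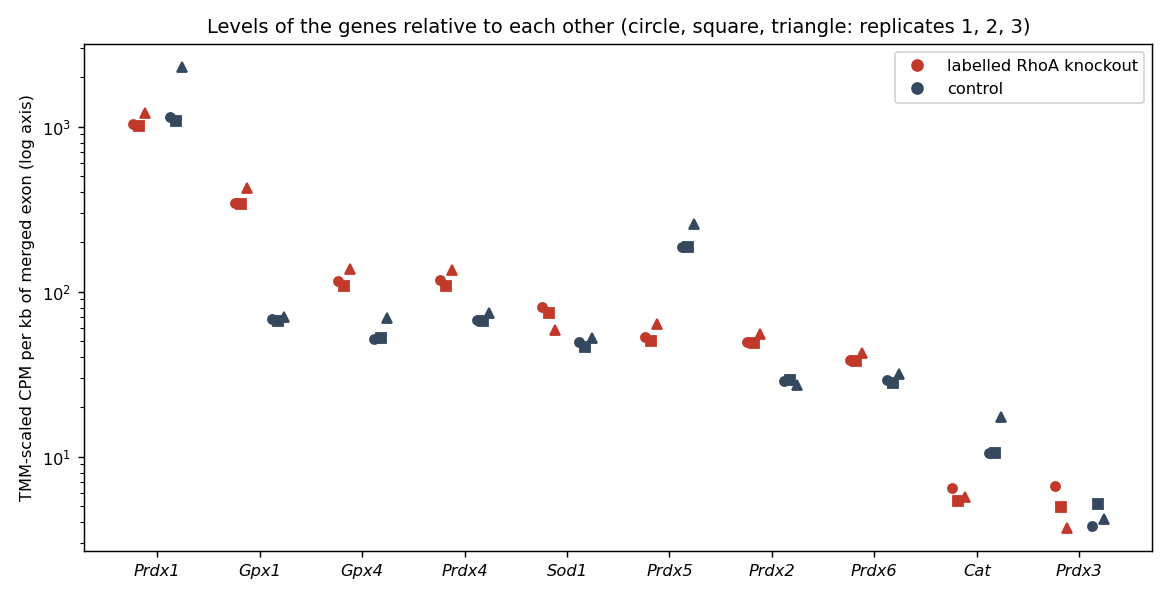
Level of each gene per kb of merged exon, in TMM-scaled CPM per kb on a log axis, with points for libraries (circle, square, triangle for replicates 1, 2, 3), ordered by the mean in the libraries labelled RhoA knockout. Prdx1 is highest in both groups, Prdx3 and Cat are lowest, and Prdx5, with rank 6 in the libraries labelled RhoA knockout and rank 2 in the controls, is the gene whose place differs most.

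Within the peroxiredoxins, Prdx1 supplied 80.0 ± 0.280% of the summed level per kb in the libraries labelled RhoA knockout and 80.3 ± 4.30% in the controls (SD, n = 3 each; exact permutation p = 1, two-sided). The near equality of these means rests on control replicate 3, as the control shares were 78.2, 77.5 and 85.3%. Knockout minus control, the difference was -0.39 percentage points, and 2.09 without control replicate 3. Behind Prdx1, Prdx5 made up 4.09 ± 0.135% in the libraries labelled RhoA knockout and 11.9 ± 2.05% in the controls. Prdx4 made up 8.86 ± 0.247% in the libraries labelled RhoA knockout and 4.03 ± 1.10% in the controls. For Prdx2 the shares were 3.78 ± 0.105% in the libraries labelled RhoA knockout and 1.70 ± 0.592% in the controls, and for Prdx6 they were 2.93 ± 0.0952% in the libraries labelled RhoA knockout and 1.72 ± 0.471% in the controls. For these 4 genes the libraries of the groups did not overlap (exact permutation p = 0.1 each, two-sided, the smallest possible with 3 against 3).

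Genes of the thioredoxin system, which restores peroxiredoxins, were called in both directions. Of its 11 listed genes, which are not all restoring enzymes, 10 were tested, 2 were higher and 3 lower, with a median log2 change of -0.02. Txn1, the cytosolic thioredoxin, held 121, 98.7 and 122 CPM in the libraries labelled RhoA knockout, compared with 121, 110.2 and 106 CPM in the control libraries, and was not called (log2 change 0.02 ± 0.11, SE; edgeR adjusted p = 0.903). With the length correction it was called lower, at -0.32 (adjusted p = 0.0357). Txn2, the mitochondrial thioredoxin, rose, with 347, 377 and 494 CPM in the libraries labelled RhoA knockout, compared with 170.2, 160.5 and 169.6 CPM in the control libraries (log2 change 1.28 ± 0.14, SE; edgeR adjusted p = 1.28e-05). The thioredoxin-like Txnl1 was not called (-0.07 ± 0.10, adjusted p = 0.641). The next genes were chosen after their values were seen. Txnrd1, the cytosolic thioredoxin reductase, fell by 1.62 on the log2 scale (edgeR adjusted p = 1.75e-06), and Srxn1, the sulfiredoxin that rescues overoxidised peroxiredoxins, by 1.45 (adjusted p = 6.47e-05). Sesn1 of the same list rose by 1.89 (adjusted p = 0.000667), and Txnrd2 was not called (0.02 ± 0.28, adjusted p = 0.962). Txnip was called lower, at -0.52 (adjusted p = 0.0342), although its groups overlapped.

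Glutathione genes were called in both directions as well. Of 26 genes, 20 were tested, 7 were higher and 9 lower, with a median log2 change of -0.25. Glrx, the cytosolic glutaredoxin, held 17.2, 15.8 and 14.9 CPM in the libraries labelled RhoA knockout, compared with 212.5, 200 and 202 CPM in the control libraries. This was a log2 change of -3.68 ± 0.11 (SE; edgeR adjusted p = 1.28e-09). Glrx3, a glutaredoxin that handles iron-sulfur clusters, rose, with 259, 254 and 299.3 CPM in the libraries labelled RhoA knockout, compared with 84.2, 82.2 and 90.7 CPM in the control libraries (1.66 ± 0.11, adjusted p = 3.17e-07). Slc3a2, the heavy chain of the cystine carrier, fell by 0.55 (adjusted p = 0.0105). Several genes of glutathione supply were chosen after their values were seen. Slc7a11, the light chain of that carrier, had a log2 change of -4.09 ± 0.19 (SE; edgeR adjusted p = 1.93e-08), Gclm, the modifier subunit of the enzyme that starts glutathione synthesis, of -3.29 ± 0.25 (adjusted p = 8.84e-07), and Gsr, which recycles oxidised glutathione, of -1.70 ± 0.43 (adjusted p = 0.00848). The value of Slc7a11 is uncertain because a stretch of 373 bp in its longest transcript matches the tubulin genes Tuba1a, Tuba1b and Tuba1c at 95.4 to 96.2%. Further copies, mostly pseudogenes, match at 95.2 to 96.5%. Tuba1b went the other way, with 19459 to 20219 counts in the libraries labelled RhoA knockout and 4020 to 7273 counts in the controls. Chosen in the same way, Chac1, which breaks glutathione down, rose by 2.56 (adjusted p = 1.32e-06), and Mgst3, a microsomal glutathione transferase, by 2.07 (adjusted p = 8.53e-07).

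The NRF2 list holds regulators such as Keap1 and Mafk besides targets, while Gclm and Slc7a11 stand in the glutathione list. Of its 20 genes, 18 were tested, 2 were higher and 8 lower, with a median log2 change of -0.48. The ferritin chains, which store iron, were its most abundant genes. Fth1 averaged 12100 CPM in the libraries labelled RhoA knockout and 26380 CPM in the controls (log2 change -1.12 ± 0.16, SE; edgeR adjusted p = 0.00013), and Ftl1 averaged 52420 CPM in the libraries labelled RhoA knockout and 82930 CPM in the controls (-0.66 ± 0.18, adjusted p = 0.0113). The call of Ftl1 was lost without knockout replicate 1 (adjusted p = 0.06) and without knockout replicate 2 (0.0517). Esd, an esterase, fell by 1.88 (adjusted p = 5.36e-06). Nfe2l2, which encodes NRF2 itself and was chosen after its values were seen, rose, with 29.7, 24.2 and 29.5 CPM in the libraries labelled RhoA knockout, compared with 10.9, 12.3 and 11.2 CPM in the control libraries (1.28 ± 0.13, adjusted p = 9.49e-06). Hmox1, chosen in the same way, held 22.7, 24.3 and 24.4 CPM in the libraries labelled RhoA knockout, compared with 76.4, 75.8 and 265.0 CPM in the control libraries (-2.55 ± 0.61, adjusted p = 0.0268).

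The source of superoxide and the supply of NADPH were read in the same way. Of 13 NADPH oxidase genes, 8 were tested, 4 were higher and 1 lower, with a median log2 change of 0.47. Cybb, the catalytic subunit of the phagocyte oxidase, held 1047, 1002 and 942.5 CPM in the libraries labelled RhoA knockout, compared with 499.6, 493.7 and 447.7 CPM in the control libraries (log2 change 1.05 ± 0.11, SE; edgeR adjusted p = 1.32e-05). Its partner Cyba rose by 0.82 (adjusted p = 0.000392), while the GTPase Rac2, which activates the oxidase, was not called (0.09 ± 0.12, adjusted p = 0.553). With library totals in place of TMM, Rac2 was called higher, at 0.26 (adjusted p = 0.0272). Of 15 genes of NADPH supply, all tested, 6 were higher and 6 lower, with a median of -0.12. The mitochondrial isocitrate dehydrogenase Idh2 rose by 1.46 (adjusted p = 6.76e-07), and neither Mthfd2 (-0.12 ± 0.10, adjusted p = 0.373), of mitochondrial folate metabolism, nor Tkt (0.05 ± 0.11, adjusted p = 0.738), the transketolase of the pentose phosphate pathway, was called. With the length correction Tkt was called higher, at 0.37 (adjusted p = 0.0155).

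A list of genes of selenoprotein synthesis, other selenoproteins and the selenium-binding protein Selenbp1, which is neither, held calls in both directions. Of 21 genes, 20 were tested, 5 were higher and 7 lower, with a median log2 change of 0.10. The folding-related selenoprotein Selenof rose by 0.69 (edgeR adjusted p = 0.000158), Sars, the synthetase that charges serine onto the selenocysteine transfer RNA, fell by 0.85 (adjusted p = 0.000226), and Selenok, a selenoprotein of the endoplasmic reticulum, was not called (0.37 ± 0.19, adjusted p = 0.147). Selenok was called higher in 4 alternatives, at 0.69 without control replicate 3 (adjusted p = 0.000324), 0.64 without replicate 3 of both groups (0.000304), 0.56 with library totals (0.02) and 0.42 with the replicate block (0.0321). Sephs2, which makes the selenium donor, and Eefsec, the elongation factor for selenocysteine, were chosen after their values were seen. They rose by 1.63 (adjusted p = 8.23e-06) and by 1.26 (adjusted p = 4.80e-05). Named in the same way, Pstk, Sepsecs, Secisbp2, Sephs1 and Scly of this list were not called. Selenow, Selenot, Selenon, Selenoo, Selenoi and Msrb1 were called lower, and Selenoh and Selenbp1 higher. Selenbp1 is uncertain because its copy Selenbp2 matches it at 98.5% over 1712 bp and held up to 30.9% of its count. Selenoo is uncertain because it overlaps Tubgcp6, whose count was up to 197% of that of Selenoo.

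The compartments of Cat, Prdx5 and Prdx4 were covered by 2 further lists. Of 29 peroxisomal genes, 28 were tested, 10 were higher and 3 lower, with a median of 0.20 (5 lower without control replicate 3). The most abundant of them all rose, namely the thiolase Acaa1a by 1.29 (edgeR adjusted p = 2.64e-06), the sterol carrier Scp2 by 1.45 (adjusted p = 1.21e-06) and the biogenesis factor Pex16 by 0.58 (adjusted p = 0.00441, but 0.145 with the length correction). Scp2 is uncertain because its copy Scp2-ps2 held up to 14.1% of its count. Of 16 genes of oxidative folding in the endoplasmic reticulum, all tested, 6 were higher and 4 lower, with a median of -0.07. The disulfide isomerases Pdia3 and Pdia6 rose by 1.68 (adjusted p = 9.82e-07) and by 1.15 (adjusted p = 1.67e-05), while P4hb was not called (0.04 ± 0.14, adjusted p = 0.824).

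Ferroptosis, the cell death by lipid peroxidation that Gpx4 holds back, was covered by 22 genes. These include genes of iron handling and of mitochondrial channels, so their counts are not a measure of lipid peroxidation itself. Of the 22 genes 20 were tested, 5 were higher and 11 lower, with a median log2 change of -0.69. Sat1, which breaks down polyamines, fell by 2.59 (edgeR adjusted p = 5.57e-08), while the channel genes Vdac2 and Vdac3 of the outer mitochondrial membrane rose by 0.71 (adjusted p = 0.00011) and by 0.62 (adjusted p = 0.00105). Vdac3 is uncertain because of its copy Vdac3-ps1. Chosen after their values were seen, Acsl4, which feeds polyunsaturated fatty acids into membranes, fell by 1.37 (adjusted p = 2.98e-05), and Tfrc, the transferrin receptor, by 3.03 (adjusted p = 5.25e-07). The lipoxygenase gene Alox5, chosen in the same way, went the other way and rose by 2.67 (adjusted p = 7.28e-06).

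**Figure D4:**
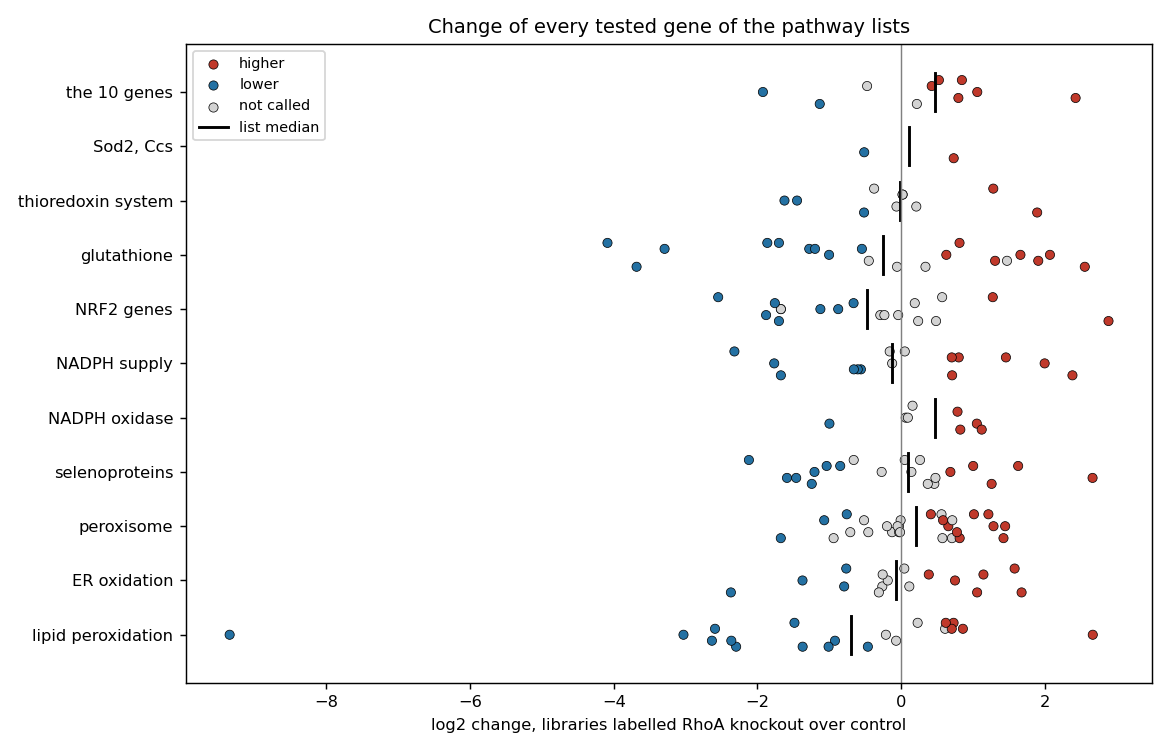
Log2 change, libraries labelled RhoA knockout over control, of every tested gene of the 10 genes described and of the lists around them. Points are genes, coloured by call at an edgeR adjusted p of 0.05, and vertical lines are list medians. The row named lipid peroxidation is the ferroptosis list, which also holds genes of iron handling. Every list holds calls in both directions.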

How the data were processed

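The authors deposited raw counts, whole numbers for each gene, for 3 libraries labelled RhoA knockout and 3 control libraries. The genome build was GRCm38, per the submitters' processing notes. Aligner, counting tool and strand setting are not given there. Columns were assigned to samples by name, with none left over.

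Gene IDs were matched to GENCODE M21, without version for 55227 of 55487. Low genes were removed with filterByExpr, libraries were scaled by TMM, and the groups were compared with the robust quasi-likelihood test of edgeR 4.0.16 (R 4.3.3). P-values of the 12930 genes were adjusted by Benjamini-Hochberg, with calls at 0.05. Each standard error is the size of the log2 change over the root of its F. Alternatives were other scalings, filters, DESeq2 1.42.0, libraries left out, a replicate block, a length correction (lowess of each library over log exon length, span 0.3), the 10 most abundant genes left out, counts divided by 4, because counts at multiples of 4 occurred 1.32 to 1.45 times as often as the counts beside them, and added copies. Copies were sought with blastn 2.17.0 at 95% identity over at least 200 bp. The procedure was tested on simulated data.

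The members and lists were chosen with earlier results of these data known. From each list the 3 tested genes with the highest average log2 CPM were named, whatever their change, besides the 10 genes, Rhoa and the remaining glutathione peroxidases and superoxide dismutases, and other names are said to be chosen after their values were seen. Same-numbered libraries did not deviate together, so the replicate numbers were not taken as pairs. Counting floors are 3 counts and cover counting error only.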

Additional observations from a re-analysis of the deposited data

How the results depend on the processing

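Under the 18 alternatives the 8 called genes of the 10 kept their direction and call, with log2 changes of 2.07 to 2.59 for Gpx1, 0.71 to 1.23 for Gpx4, 0.70 to 1.01 for Prdx2, 0.51 to 0.96 for Prdx4, 0.36 to 0.60 for Prdx6, 0.41 to 0.72 for Sod1, -2.21 to -1.75 for Prdx5 and -1.36 to -0.83 for Cat. Prdx3 turned to -0.13 with the length correction and to -0.17 with the replicate block and length correction together, and lay between -0.037 and 0.41 over the settings that left out 1 library. Prdx1 was called lower, at -0.53 (adjusted p = 0.03), only with the replicate block and length correction together. The replicate block alone called 2634 genes higher and 2738 lower and changed no call of the 10 genes; the correlation of deviations between same-numbered libraries was -0.01, 0.03 and 0.01. With library totals in place of TMM, 59.8% of calls were higher, against 48.5%. The median log2 change of all genes then moved to 0.15, against -0.03. Mthfd2 turned to 0.045 and Txnl1 to 0.11 with library totals, and 8 genes of the selenoprotein list were higher. That list also had 8 higher genes without replicate 3 of both groups, where 2 genes of oxidative folding were lower. The length correction left no gene lower in the pair of Sod2 and Ccs (0, also with the replicate block), and turned P4hb to -0.14, Rac2 to -0.038, Txn1 to -0.32 and Txnl1 to 0.19; with the replicate block as well these were -0.12, -0.043, -0.32 and 0.19. Without 1 library the lower peroxisomal genes numbered 2 to 5, P4hb lay between -0.068 and 0.22, Tkt between -0.018 and 0.13 and Txn1 between -0.043 and 0.10, and Txn1 was at -0.068 without replicate 3 of both groups. Per longest transcript in place of merged exons, a choice made after the data were seen, the shares of Prdx2 and Prdx4 differed by 2.68 and 6.96 percentage points, against 2.08 and 4.82. The causes were not tested. For family members with no count, depth sets the floor given with them, and that of Gpx2 is uncertain because of its copy.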
